A study of Nicotiana benthamiana with 12 samples.

Results

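The 150 array probes described here had a lower signal in tobacco leaves under salt stress than under normal conditions, both in the transgenic line L2 and in wild-type (WT) plants. They were chosen from 43759 probes by their measured values. For each of the 22824 probes well above background on all 6 normal arrays, the margin was taken as the lowest value on a normal array minus the highest value on a salt array. The 150 probes with the largest margin were kept. A margin above 0, which means that all 6 salt arrays lay below all 6 normal arrays, was found for 308 probes (1.35%). The fall under salt is therefore what chose the probes. It is described below and was not tested.

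The plants were L2 and WT seedlings of Nicotiana benthamiana, as the labels name them, 2 weeks old, with days of 16 h of light and 8 h of dark at 25 °C. L2 is 1 homozygous line that carries CbFAD3, an omega-3 fatty acid desaturase gene of Chorispora bungeana, under the CaMV 35S promoter, which is active in most tissues. The 4 groups were L2 after 6 h in 200 mM NaCl (L2 salt), L2 under normal conditions (L2 normal), WT after 6 h in 200 mM NaCl (WT salt) and WT under normal conditions (WT normal), with 3 arrays each. Each array received RNA from pooled leaves of separate plants, 5 per pool in the series text and 3 in the sample labels. The array is a one-colour Agilent design for N. tabacum, and how well its probes match the transcripts of N. benthamiana was not examined. The p-values below rest on the spread between the arrays of a group. It holds differences between these pools and, in L2 normal and WT salt, also between the slides described below.

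Salt stress lowers water uptake and brings sodium into the leaf, and leaves are known to answer within hours with a slower growth and with many transcripts that rise or fall. A transcript that falls may be made less or degraded faster. In pooled leaves, a smaller share of the cells that hold a transcript cannot be told apart from less of it per cell. The files name a probe by its identifier and by the accession of the sequence it was designed on, and give no gene name or probe sequence. Of the 150 probes, 127 carry the accession of a GenBank sequence, 19 that of an assembled contig (TA) and 4 only their own name. Together they stand for 145 accessions. An annotation was at hand for 61 probes of the array, and 0 of these are among the 150. No gene function is therefore given for any of them, and the markers of leaf tissue could not be looked up.

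The 12 arrays lay on 3 slides. Slide 1 held L2 normal 1 and WT normal 1, 2 and 3. Slide 2 held L2 normal 2 and 3 together with WT salt 1 and 2, and slide 3 held L2 salt 1, 2 and 3 with WT salt 3. No slide held both conditions of 1 line, so within each line salt and slide are fully confounded. Only slide 2 held both conditions, and there they came from different lines. On each array, 49.2% to 63.0% of the probes had a signal well above background, 0 spots were saturated, and the 75th percentile of the signal, to which each array was scaled, was 786.7–998.2 on slide 1 and 1365–2421 on the others. L2 normal 1 stood apart from L2 normal 2 and 3. Between the slides of the L2 normal arrays, 19.8% of all tested probes differed by more than 2-fold, and of the 150 probes 6 (4.0%). The choice used the lowest normal value and so favours probes whose normal arrays lie close together. The smaller share among the 150 is therefore partly set by the choice. Calls and medians without this array are given below.

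Signals are given on the log2 scale relative to the 75th percentile of their array, so that 0 is the level of a probe at that percentile. The median of the 150 probes was −1.76, −1.81 and −1.95 on L2 salt 1, 2 and 3, against −0.78, −0.97 and −1.02 on L2 normal 1, 2 and 3. It was −1.66, −1.77 and −1.69 on WT salt 1, 2 and 3, against −0.92, −0.92 and −0.84 on WT normal 1, 2 and 3. The salt arrays of both lines lay close together, and so did the normal arrays, while the probes themselves spanned a wide range of levels, as the boxes by array show. Their mean on the normal arrays had a range of −4.18 to 3.77, with a median of −0.93 against −0.15 over the 22824 probes from which they were chosen. For 47 of the 150 (31.3%) it lay above the 75th percentile of the array, against 47.6% of those 22824 probes.

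**Figure D1:**
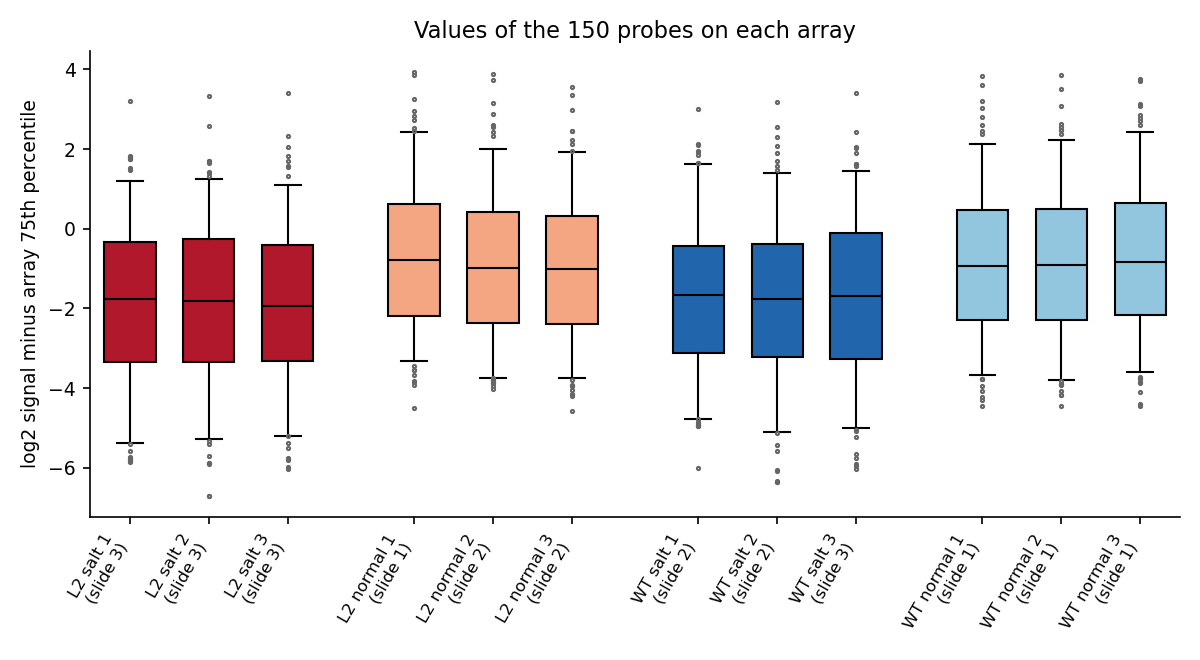
Values of the 150 probes on each of the 12 arrays, on the log2 scale relative to the 75th percentile of the array. The line in each box is the median, the box the interquartile range and the whiskers the 5th to 95th percentile, with the slide of each array below it. The medians of the salt arrays sit between −1.95 and −1.66, and those of the normal arrays between −1.02 and −0.78.

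The fall was moderate for most of the 150 probes. Salt minus normal had a median of −0.75 in L2, with a range of −5.37 to −0.28, and of −0.81 in WT, with a range of −3.31 to −0.25. The probes tested were the 26312 that 1 or more of the groups had well above background on its 3 arrays. Over these the median was −0.0026 in L2 and −0.19 in WT. More than 2-fold lower were 52 of the 150 in L2, where the background over all tested probes is 4.2%, and 38 in WT, where it is 9.75%. In L2, 30 of the 150 probes were up to 1.5-fold lower, 68 between 1.5-fold and 2-fold, 41 between 2-fold and 4-fold, and 11 more than 4-fold. In WT the counts were 31, 81, 33 and 5 in the same order. More than 2-fold lower in both lines were 28 probes, where the background over all tested probes is 1.71%. Since the choice used these arrays, the number of the 150 that the fit over all tested probes called lower is a description, with 11 in L2, where the background is 0.103%, and 34 in WT, where it is 6.96%. A fit with a slide block called 2 of the 150 lower in L2 and 0 in WT. Over all tested probes it called 6 lower in L2 and 0 in WT. In that fit slide 1 is tied to slide 2 only through L2 normal 1, and slide 3 only through WT salt 3. The fall in WT then depends on L2 normal 1, and the fall in L2 on WT salt 3. Of the probes not among the 28, 24 were more than 2-fold lower in L2 alone, 10 in WT alone, and 88 in neither. Of the 28 probes, 6 were among the 47 brighter ones and 22 among the other 103.

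A probe that was well above background on no salt array of a line has only a bound there. All of the 150 probes were above background on at least 1 WT salt array, and 129 on all of them. In L2, 110 were above background on all salt arrays and 17 on none. For these 17, the mean of L2 normal was set against a floor. On each L2 salt array the floor is the dimmest signal that still counts as well above background, or the signal of the probe if that is higher. It gave a fold for 15 of the 17, from at least 1.03-fold to at least 14.5-fold lower, and none for the other two. With those 15 at their bound, the median in L2 was −0.71, and 43 probes in L2 and 21 in both lines were more than 2-fold lower. All 6 salt arrays were well above background for 73.3% of the 150 probes, against 90.7% of the probes from which they were chosen.

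**Figure D2:**
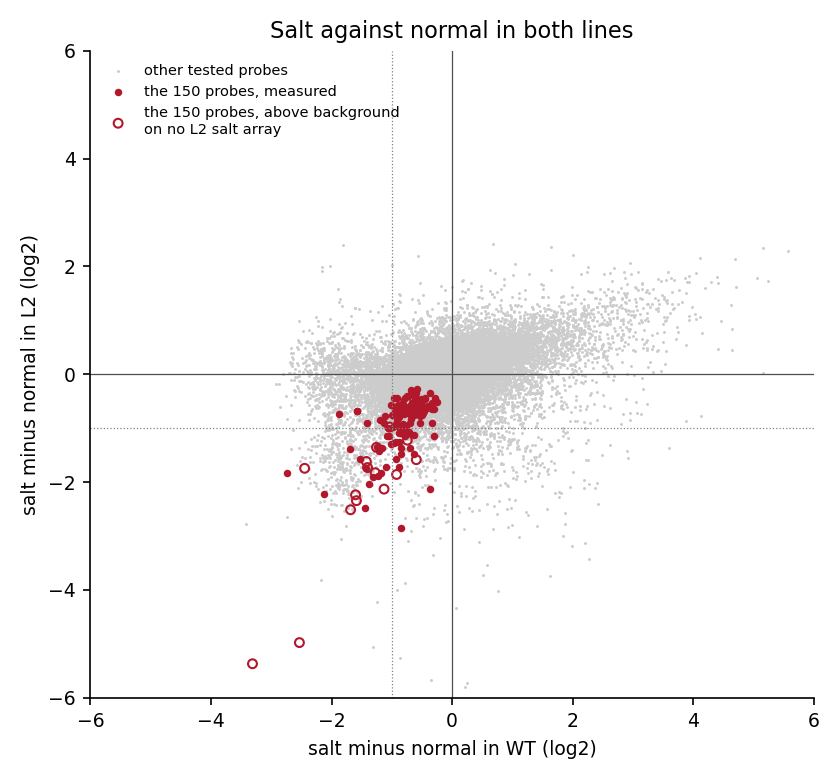
Salt minus normal in L2 (vertical axis) and in WT (horizontal axis), both on the log2 scale, for the 150 probes (red) and for all other tested probes (grey). Open circles are the 17 probes that were well above background on no L2 salt array, whose fall in L2 has only a bound, and the dotted lines mark a 2-fold lower signal. The 150 probes lie below 0 on both axes by choice, and most lie within 2-fold of 0 in both lines.

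The largest margin, 1.08, belonged to A_95_P148922 (EB678509). Its log2 values were −5.86, −4.52 and −6.04 on L2 salt 1, 2 and 3, against 0.63, 0.20 and −1.14 on L2 normal 1, 2 and 3. They were −4.20, −6.06 and −3.97 on WT salt 1, 2 and 3, against 0.04, −2.89 and −1.44 on WT normal 1, 2 and 3. The groups were far apart in both lines, and the arrays of 1 group also differed by up to 2.94. The probe was above background on no L2 salt array, where it was at least 14.5-fold lower, and on 2 of the WT salt arrays, with a 9.93-fold lower mean in WT.

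A_95_P190937 (EB677483) followed the same course. It was at −5.83, −6.70 and −5.97 on L2 salt 1, 2 and 3, against −0.64, −0.91 and −2.04 on L2 normal 1, 2 and 3. It was at −4.96, −6.36 and −4.42 on WT salt 1, 2 and 3, against −1.29, −4.07 and −2.77 on WT normal 1, 2 and 3. It was at least 6.79-fold lower in L2 and 5.79-fold lower in WT. Within L2 normal, WT salt and WT normal, its arrays stood in the same order as those of A_95_P148922, with WT normal 2 the lowest of all normal arrays for both probes.

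A_95_P125857 (EB424950) was, with both probes above, among the 3 that were more than 4-fold lower in both lines, and of these it alone was measured on every array. Its values were −2.63, −2.65 and −1.91 on L2 salt 1, 2 and 3, against −0.70, 0.72 and −0.55 on L2 normal 1, 2 and 3. They were −2.94, −3.31 and −3.23 on WT salt 1, 2 and 3, against −1.53, −0.44 and −1.14 on WT normal 1, 2 and 3. It was 4.67-fold lower in L2 and 4.37-fold lower in WT. The lowest normal array, WT normal 1, lay 0.39 above the highest salt array, L2 salt 3.

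Among the probes with a high signal, A_95_P089228 (BP530413) had the third largest margin, 0.80. It was at −0.21, 0.02 and −1.15 on L2 salt 1, 2 and 3, against 1.13, 1.59 and 1.41 on L2 normal 1, 2 and 3. It was at −1.02, −1.86 and 0.33 on WT salt 1, 2 and 3, against 1.84, 1.77 and 2.05 on WT normal 1, 2 and 3. The normal arrays were close to each other in both lines and the salt arrays were spread, by 2.19 in WT. The mean was 3.55-fold lower in L2 and 6.66-fold lower in WT.

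A_95_P035368 (FG152688), with the second largest margin of 0.84, was the opposite in this respect, with salt arrays that hardly differed. It was at −3.63, −3.43 and −3.42 on L2 salt 1, 2 and 3, against −1.74, −1.98 and −2.59 on L2 normal 1, 2 and 3. It was at −3.57, −3.74 and −3.51 on WT salt 1, 2 and 3, against −1.80, −2.0 and −1.95 on WT normal 1, 2 and 3. The mean was 2.62-fold lower in L2 and 3.24-fold lower in WT. The probe was above background on 2 of the L2 salt arrays and on all WT salt arrays.

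A_95_P206162 (TA18447_4097), an assembled contig, shows the more usual size of the fall. It was at −0.74, −0.98 and −0.72 on L2 salt 1, 2 and 3, against 0.26, 0.01 and 0.21 on L2 normal 1, 2 and 3. It was at −0.99, −1.04 and −0.65 on WT salt 1, 2 and 3, against 0.13, −0.09 and −0.07 on WT normal 1, 2 and 3. All 6 normal arrays stood within 0.35 of each other and all 6 salt arrays within 0.39. The mean was 1.96-fold lower in L2 and 1.84-fold lower in WT.

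**Figure D3:**
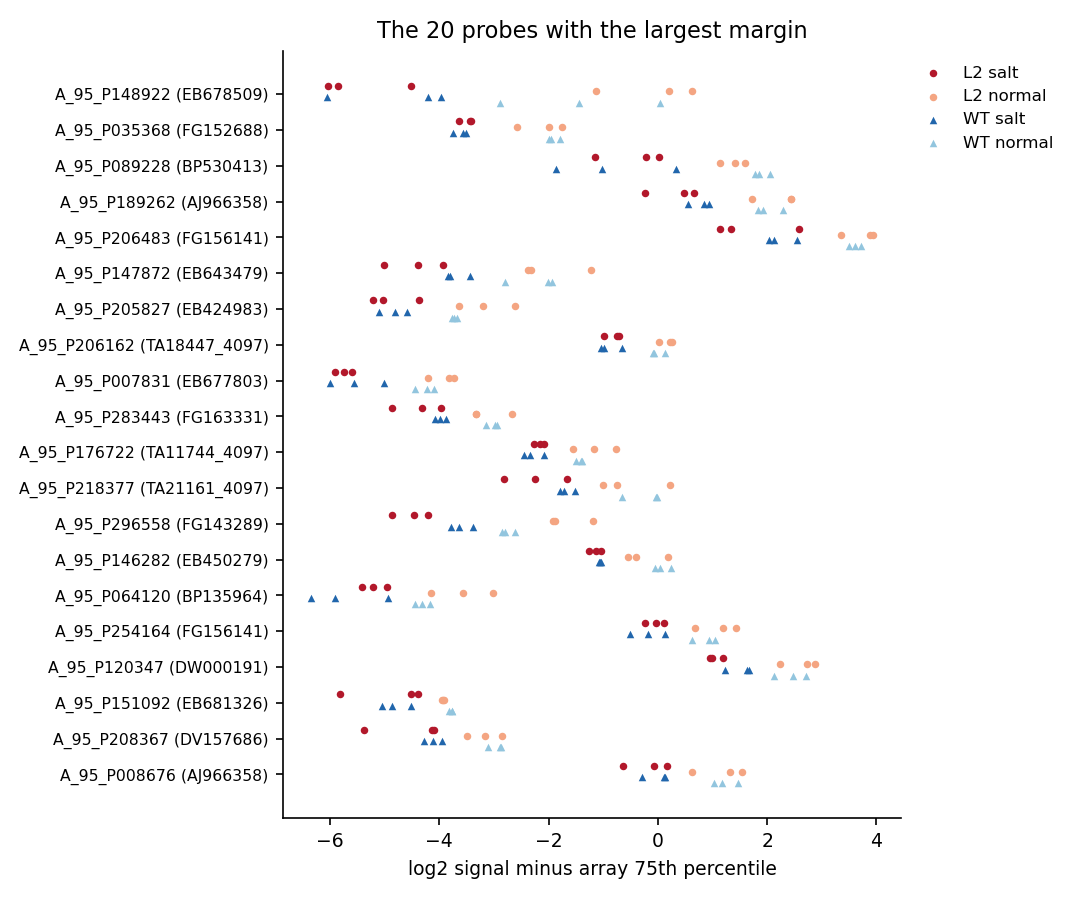
Values of the 20 probes with the largest margin, on the log2 scale relative to the 75th percentile of the array, with 1 point for each of the 3 arrays of a group. Circles are L2 (dark, salt; light, normal) and triangles WT (dark, salt; light, normal), and the accession stands in brackets. The light and dark points of a probe do not overlap by choice, and the gap between them narrows from 1.08 at the top to 0.44 at the bottom.

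For the rest of the 20 probes with the largest margin, the fitted salt minus normal was between −2.84 and −0.90 in L2 and between −1.44 and −0.85 in WT. Of these, A_95_P007831, A_95_P064120 and A_95_P151092 were above background on no L2 salt array, so that their value there is no measured difference. The median margin of the 150 probes was 0.18, and 13 had a margin above 0.5. The choice of 150 cuts through a dense range of values. The last 3 probes taken were A_95_P145377 (EB425395), A_95_P083005 (BP528649) and A_95_P249272 (DV160145), with margins of 0.0945, 0.0938 and 0.0911. The first 3 left out were A_95_P201262 (FG162155), A_95_P163662 (EH622753) and A_95_P074265 (BP526419), with margins of 0.0910, 0.0900 and 0.0896. The margin at rank 100 was 0.154 and at rank 200 it was 0.0514.

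A_95_P019191 (TA12328_4097) owed its large mean fall in L2 to 1 array. It was at −3.40, 1.25 and 1.59 on L2 salt 1, 2 and 3, against 2.02, 1.91 and 1.88 on L2 normal 1, 2 and 3. It was at 1.64, 1.48 and 1.59 on WT salt 1, 2 and 3, against 1.97, 1.91 and 1.92 on WT normal 1, 2 and 3. On every array but L2 salt 1 the probe was between 1.25 and 2.02. With that array the mean difference in L2 was −2.12, and without it −0.51, beside −0.37 in WT. L2 minus WT under salt was likewise −1.76 with L2 salt 1, the largest difference of the 150 under salt, and −0.15 without it. The arrays of a group differed by more than 2 on the log2 scale for 4 of the 150 probes in L2 salt, 1 in L2 normal, 4 in WT salt and 2 in WT normal. The usual range within a group was smaller, with medians of 0.43 in L2 salt, 0.51 in L2 normal, 0.35 in WT salt and 0.26 in WT normal.

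There are 5 accessions with a pair of probes among the 150, and the probes of a pair share a target, so they are not independent. Both probes of a pair were also chosen for their fall, so that a pair agrees on its direction was fixed by the choice. For EH618184, A_95_P216057 and A_95_P256169 gave nearly the same fall. Salt minus normal was −0.68 for both in L2 and −1.58 for both in WT. On WT salt 1, 2 and 3 both probes also ranked the arrays alike, with WT salt 1 the lowest. For AJ966358, the difference was −1.89 and −1.34 in L2 and −1.23 and −1.24 in WT, for A_95_P189262 and A_95_P008676. The pair agreed closely in WT, and in L2 both probes had their lowest value on L2 salt 3.

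For FG156141, A_95_P206483 was at 1.14, 2.57 and 1.33 on L2 salt 1, 2 and 3, against 3.94, 3.89 and 3.35 on L2 normal 1, 2 and 3. The difference was −2.04 in L2 and −1.37 in WT, and for its partner A_95_P254164 it was −1.14 in L2 and −1.05 in WT. Of the L2 salt arrays, number 2 gave the highest value for A_95_P206483 and the lowest for A_95_P254164, so the pair did not agree on the order of the arrays. For EB424983, the difference was −1.72 and −1.57 in L2 and −1.10 and −1.54 in WT, for A_95_P205827 and A_95_P205237. For FG164077, it was −0.69 and −0.64 in L2 and −0.61 and −0.70 in WT, for A_95_P286828 and A_95_P073720.

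A further 18 probes carry the accession of 1 of the 150 without being among them. Of these, 15 were tested, and 14 of the 15 were ranked by their margin and left out because it was too small. Their values are therefore a description and no independent look at the fall. Both lines had a lower mean under salt for 10 of the 15, where the share of all tested probes was 37.9%, and all 6 salt arrays lay below all 6 normal arrays for 1 of them. Their median difference was −0.28 in L2 and −0.17 in WT. The nearest match was FS409302, whose other probe A_95_P025151 had a difference of −1.37 in L2 and −0.57 in WT and a margin of 0.08.

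For 3 of the accessions the other probe had a higher mean under salt in both lines, and in none of these did the difference in L2 pass the test. A_95_P283443 (FG163331) was lower, with −1.27 in L2 and −0.96 in WT, while A_95_P154207 of the same accession had 0.81 in L2 (SE 0.317, adjusted p = 0.232 from limma) and 1.70 in WT (SE 0.317, adjusted p = 0.0119 from limma). For FG138960, the other probe A_95_P235084 had 0.17 in L2 (SE 0.231, adjusted p = 0.756 from limma) and 0.96 in WT (SE 0.231, adjusted p = 0.0216 from limma), which is under 2-fold. For FG145536, the other probe A_95_P290183 was above background on no WT normal array and was at least 4.02-fold higher in WT salt (adjusted p = 0.0139 from limma). In L2 it was above background on 1 of the salt and 2 of the normal arrays, with a difference of 0.79 (SE 0.711, adjusted p = 0.615 from limma). Where the probes of an accession disagree, the files do not tell which of them follows the transcript, and possible causes were not tested.

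**Figure D4:**
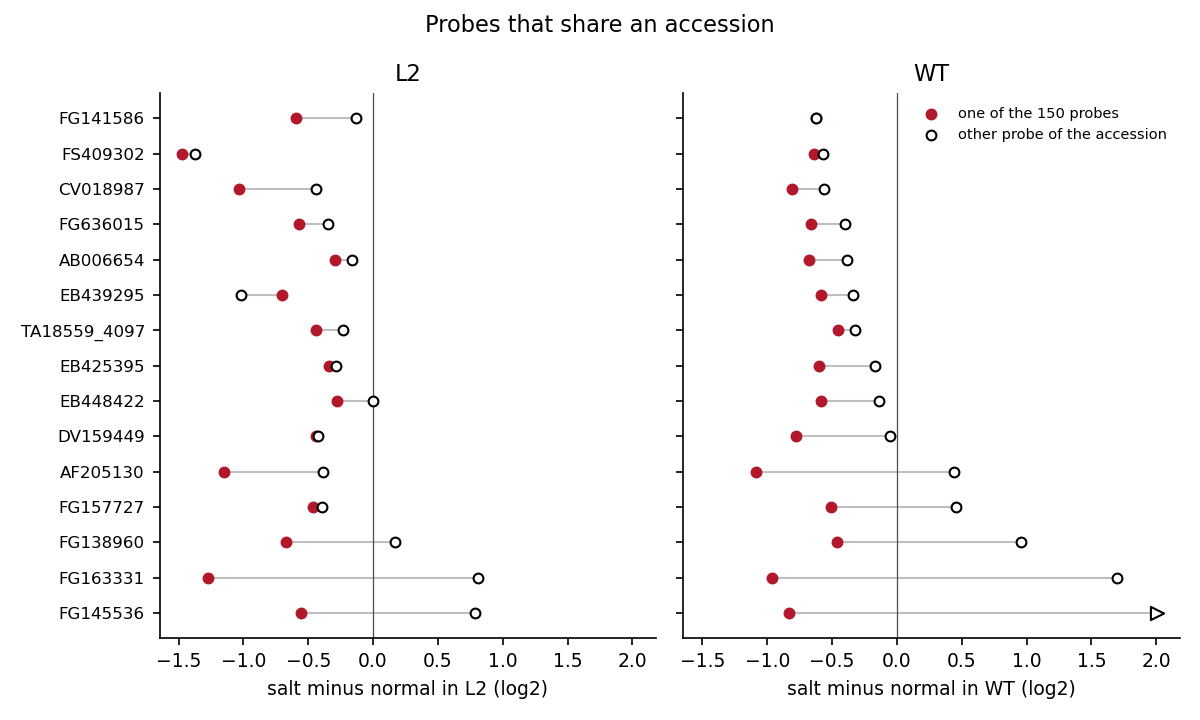
Salt minus normal on the log2 scale in L2 (left) and in WT (right) for the 15 accessions that have 1 of the 150 probes (red) and another tested probe (open circle), joined by a line. The triangle is a lower bound, for a probe above background on no WT normal array. The chosen probes lie below 0 by choice, and the other probe is below 0 in both lines for 10 accessions.

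Whether the 150 probes differed between L2 and WT was tested with limma over all tested probes. The choice did not use which line an array came from, but it used the values on these same arrays. It favours probes whose arrays of 1 condition lie close together, in L2 and WT alike. How many of the 150 differ between the lines is therefore partly set by the choice, under either condition. Calls needed a change of over 2-fold and an adjusted p below 0.05. Under normal conditions, limma called 0 of the 150, where the background is 0.0266% (7 of 26312 probes), and 13 of the 150 had an unadjusted p below 0.05 (8.67%, against 20.9% of all tested probes). The lowest adjusted p was 0.182. L2 minus WT had a median of −0.04 and a range of −1.17 to 1.52, beside a median of −0.15 over all tested probes. On slide 1 alone, which held L2 normal 1 and all WT normal arrays, the median had the other sign, at 0.11 over the 150 and 0.03 over all tested probes. For 26 of the 150 (17.3%) the arrays of both lines did not overlap, where the background is 20.7%. Of these, 8 were higher in L2, with a background of 8.62%, and 18 lower, with a background of 12%.

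Under salt, limma again called 0 of the 150, where the background is 0%, and 13 had an unadjusted p below 0.05 (8.67%, against 5.84% of all tested probes). All of these 13 were lower in L2, as were 59.1% of the 1537 tested probes with such a p. L2 minus WT had a median of −0.10 over the 150, beside 0.03 over all tested probes, and was below 0 for 97 of them (64.7%, against 44.9%). The lowest adjusted p was 0.596. The arrays of both lines did not overlap for 22 of the 150 (14.7%), where the background is 13.9%. Of these, 3 were higher in L2, with a background of 8.44%, and 19 lower, with a background of 5.42%. On slide 3 alone, which held all L2 salt arrays and WT salt 3, the median was −0.13 over the 150, and 110 of them were below 0 (73.3%, against 44.8% of all tested probes). These values share their arrays with the choice of the probes, and a difference of the list as a whole was not tested. They include the 17 probes above background on no L2 salt array. Without these the median under salt was −0.0853, 83 of 133 probes were below 0 (62.4%), 12 had an unadjusted p below 0.05, and of the probes whose arrays did not overlap 3 were higher and 17 lower in L2.

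Limma's test of the difference between the salt responses of L2 and WT likewise called 0 of the 150, where the background is 0%, with a lowest adjusted p of 0.137. An unadjusted p below 0.05 was found for 9 of the 150 (6.0%, against 17.9% of all tested probes). The choice asked for a fall in both lines, which limits how far the responses of L2 and WT can differ. This share is therefore partly set by the choice, as are the sizes below. For the 133 probes above background on 1 or more L2 salt arrays, the response in L2 minus that in WT was within 0.5 of 0 for 111, and its range was −2.0 to 1.14. For the other 17 it has no measured value. The fitted median was −0.10 over the 150 and 0.15 over all tested probes, and with the slide as a block −0.24 over the 150. The SE of L2 minus WT had a median of 0.21 over the 150 under either condition, and that of the difference of the responses a median of 0.298. A p above the threshold does not show that the lines had the same level.

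**Figure D5:**
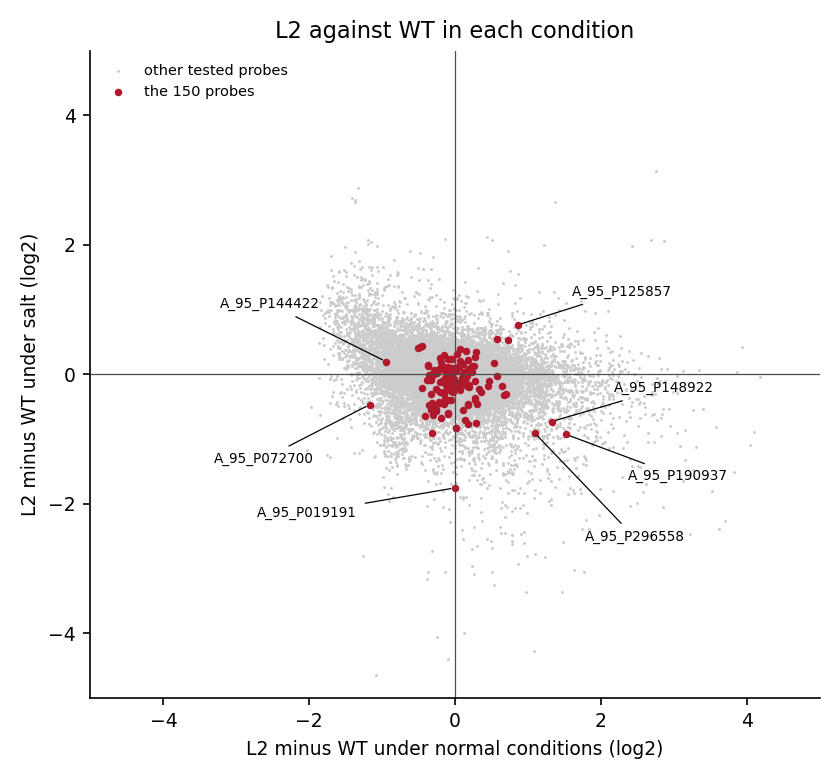
L2 minus WT under salt (vertical axis) and under normal conditions (horizontal axis), on the log2 scale, for the 150 probes (red) and for all other tested probes (grey). The 150 probes lie near the centre, and the labelled probes are those with the largest differences, none of which was called by limma.

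The probes that stood farthest from equal levels in both lines were few. A_95_P296558 (FG143289) had the lowest adjusted p of the 150 in each test between the lines. It was at −4.21, −4.45 and −4.86 on L2 salt 1, 2 and 3, against −3.63, −3.79 and −3.38 on WT salt 1, 2 and 3. It was at −1.19, −1.92 and −1.88 on L2 normal 1, 2 and 3, against −2.62, −2.86 and −2.79 on WT normal 1, 2 and 3. The arrays of L2 lay below those of WT under salt and above them under normal conditions. L2 minus WT was −0.91 under salt (SE 0.234, adjusted p = 0.596 from limma) and 1.09 under normal conditions (SE 0.234, adjusted p = 0.182 from limma). The difference of the responses was −2.0 (SE 0.331, adjusted p = 0.137 from limma). On single slides it was −1.13 under salt and 1.56 under normal conditions. It was above background on 1 of the L2 salt arrays.

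A_95_P190937 and A_95_P148922, whose values stand above, had the largest differences upward in L2 under normal conditions, 1.52 (SE 0.680, adjusted p = 0.236 from limma) and 1.33 (SE 0.787, adjusted p = 0.316 from limma). The arrays of both lines overlapped for both probes, and neither was measured above background on an L2 salt array. On slide 1 the difference was 2.07 and 2.06. A_95_P125857 was higher in L2 by 0.76 under salt (SE 0.388, adjusted p = 0.885 from limma) and by 0.86 under normal conditions (SE 0.388, adjusted p = 0.238 from limma). It had the largest upward difference of the 150 under salt.

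A_95_P144422 (EB447791) and A_95_P072700 (BP526029) were the lowest in L2 under normal conditions. A_95_P144422 was at 2.20, 1.59 and 1.25 on L2 normal 1, 2 and 3, against 2.38, 2.63 and 2.85 on WT normal 1, 2 and 3. The difference was −0.94 (SE 0.241, adjusted p = 0.194 from limma), and −0.42 on slide 1. A_95_P072700 was at −1.98, −3.81 and −4.05 on L2 normal 1, 2 and 3, against −2.43, −1.92 and −1.99 on WT normal 1, 2 and 3. The difference was −1.17 (SE 0.455, adjusted p = 0.216 from limma), and 0.13 on slide 1. In both probes L2 normal 1, which shared slide 1 with the WT arrays, lay nearer to WT than L2 normal 2 and 3 did. A_95_P144422 also had the largest upward difference of the responses, 1.14 (SE 0.341, adjusted p = 0.232 from limma).

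Without L2 normal 1, limma called 3808 of all tested probes between L2 and WT under normal conditions. Of the 150 it called A_95_P144422, with −1.20 (SE 0.200, adjusted p = 0.00298 from limma), and A_95_P072700, with −1.82 (SE 0.261, adjusted p = 0.00154 from limma). The difference of the responses was then called for 4395 of all tested probes and for 5 of the 150, which were A_95_P296558, A_95_P256169, A_95_P128792, A_95_P144422 and A_95_P072700. Of these, A_95_P128792 and A_95_P072700 were above background on no L2 salt array. The L2 normal arrays left in that fit are on slide 2 and the WT normal arrays on slide 1, so that line and slide cannot be told apart. Without that array, the median over the 150 was −0.71 for salt minus normal in L2 and −0.14 for L2 minus WT under normal conditions. For the difference of the responses it was −0.0055. Over all tested probes the same medians were 0.07, −0.23 and 0.24.

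Within slide 2, WT salt 1 and 2 could be set against L2 normal 2 and 3. The median of the 150 probes was −0.65, with a range of −4.66 to −0.13, and 0.06 over all tested probes, and 38 of the 150 were more than 2-fold lower under salt. These arrays were used in the choice, which fixes the direction, and they differ in line. With the slide as a block, the median of salt minus normal was −0.78 in L2, with 2 probes above 0, and −0.56 in WT, with 7 above 0. L2 normal 2 and 3 on slide 2 minus L2 normal 1 on slide 1 had a median of −0.20 on the log2 scale over the 150, and 109 of them were lower on slide 2 (72.7%, against 64.2% of all tested probes). The lowest normal array was on slide 2 for 88 of the 150 and the highest salt array on slide 3 for 99. Slide 3 held most of the salt arrays, and slide 2 held only L2 normal 2 and 3 of the normal arrays. The count of 99 is therefore no sign of a slide difference by itself. The same counts were not taken over all tested probes. What the slides contribute to the fall was not tested beyond these values.

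The spots of the 150 probes lay in rows 1–528 of 532 and in columns 1–85 of 85. The local floor of the raw signal around a spot was more than 2-fold from its usual level on some array for 7 of the 150, and for 1860 of all tested probes. No probe was left out of the 150 by position or annotation.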

How the data were processed

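RNA of 12 leaf samples was labelled with Cy3 and hybridized to one-colour Agilent arrays for N. tabacum, with 3 arrays for each of L2 salt, L2 normal, WT salt and WT normal. The authors extracted the spots with Agilent Feature Extraction (10.7.3.1 in the labels, 11.5.1.1 in the file headers), and the deposited scanner values are background-corrected intensity values that were not scaled between arrays. A deposited value table is on the log2 scale. Set against the scanner values, it equals the processed signal scaled to the array's 75th percentile, apart from 1 shift per array, within 0.01 for 100% of the values. In the study's methods, GeneSpring GX was used with Student's t-test (unpaired) and Benjamini-Hochberg adjustment.

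The probes were ranked by their margin in the deposited table. All other values are log2 ratios of the scanner's processed signal to the 75th percentile of the non-control spots, and 0 to 5 outlier-flagged spots per array were left out. The local floor around a spot is the 10th percentile of the raw signal within 7 rows and 2 columns. The deposited flag for a signal well above background set which of 43759 probes were tested (26312). Group means were fitted over all 12 arrays with limma 3.58.1 in R 4.3.3 (8 residual degrees of freedom; a block for the slide leaves 6), and a probe was called at an adjusted p below 0.05 and more than 2-fold. The fit was tested on simulated data with known changes. These data held independent noise and no slide effect, so they do not show how the fit deals with the slides. The array number does not pair samples: deviations of arrays with the same number correlated between −0.388 and 0.41. Their block is therefore an alternative only. Tables and figures were made with Python 3.11.15, numpy 2.4.6, pandas 2.3.3 and matplotlib 3.10.9.

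The members and lists were chosen with earlier results of these data known. The probes chosen to be named or plotted are the 20 with the largest margin, the 2 highest and 2 lowest in each contrast between the lines, those called in such a contrast, and the 3 on either side of the last rank. Others were named after their values were seen: A_95_P025151, A_95_P154207, A_95_P290183 and A_95_P235084, the pairs that share an accession, and the probes called without L2 normal 1. Lists of pathway genes and leaf, root, trichome and cell-division markers could not be applied, since the scanner values carry no descriptions. The number of arrays limits the precision, and signal over background limits what is measured.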

Additional observations from a re-analysis of the deposited data

How the results depend on the processing

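The probes selected depend on the scaling. The choice repeated on other values shared 149 of the 150 with the scanner values, 109 with the median of each array, 105 with quantile normalization, 95 with a 75th percentile taken over detected probes, 92 with normexp and an offset of 50, and 110 when all 12 arrays had to be above background. Of the 150, 94 kept all salt arrays below all normal arrays with the median of each array, 100 with normexp, 134 with quantile normalization and 142 with the 75th percentile over detected probes. Over the 22824 probes from which they were chosen, the counts were 117, 202, 359 and 465 in the same order. With the scaling used for the choice it was 308, so how many probes meet this criterion depends on the scaling. The median of salt minus normal stayed below 0 in each setting, a direction that the choice on these same arrays largely fixes. In L2 it was −0.60 with the median of each array and with normexp, and between −0.83 and −0.71 with each array left out. In WT it was −0.69, −0.67, −0.66 and −0.56 with the scaling by array medians, that over detected probes, normexp and the slide as a block, and between −0.82 and −0.77 with each array left out. The median of each array moved the median over all tested probes to 0.14 in L2 and −0.08 in WT, beside −0.0026 and −0.19.

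Between the lines, limma called 0 of the 150 in every fit except with array weights, whose estimation did not converge and which gave L2 normal 1 a weight of 0.124 and WT normal 3 5.86, and without L2 normal 1. With array weights 5 were called under normal conditions, 3 under salt and 12 in the difference of the responses, and with an array left out 0 to 2, 0 and 0 to 5. With the replicate block, limma called 0 probes in each contrast between the lines, 39 lower in L2 and 1867 lower in WT, of which 10 and 34 were of the 150. Over all tested probes, the calls under normal conditions (7) were 11 with quantile normalization, 14 with the median of each array, 2 with the 75th percentile over detected probes, 3 with outlier spots kept, 4 among probes above background on all arrays and 4039 with array weights. They were 0 with normexp, no filter, the replicate block, the slide block, an intensity trend with robust estimation, a fit on the groups compared and the methods' t-test, and 0 to 3808 with an array left out. Under salt (0) they were 1, 1 and 3 with the same scalings, 1 among probes above background on all arrays, 51 with the slide block, 516 with array weights and 0 to 6 with an array left out. For the difference of the responses (0) they were 5361 with array weights and 0 to 4395 with an array left out.

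Calls lower under salt in L2 (27) were 89 with quantile normalization, 63 with the 75th percentile over detected probes, 1 with no filter, 6 with the slide block, 1182 with array weights, and 0 with a fit on the groups compared and with the methods' t-test. In WT (1831) they were 1214 with quantile normalization, 906 with normexp, 823 with no filter, 609 among probes above background on all arrays, 0 with the slide block, 2774 with array weights and 3494 with no fold limit. With an array left out they were 2 to 87 in L2, namely 9, 11 and 30 without L2 salt 1, 2 and 3, 44, 56 and 53 without L2 normal 1, 2 and 3, 8, 15 and 87 without WT salt 1, 2 and 3, and 11, 6 and 2 without WT normal 1, 2 and 3. In WT they were 95 to 2338, namely 613, 216 and 1084 without WT salt 1, 2 and 3, 529, 95 and 115 without WT normal 1, 2 and 3, and 1526 to 2338 without an L2 array. Of the 150 probes, 1 to 18 were then called in L2 and 8 to 36 in WT. Without adjustment, the methods' t-test with the 2-fold limit called 402 probes lower in L2 (45 of the 150), 380 between the lines under normal conditions (1 of the 150) and 232 under salt (0 of the 150).

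With the slide as a block, L2 minus WT changed sign for 58 of the 150 under normal conditions and 33 under salt, the difference of the responses for 46, and salt minus normal for 2 in L2 and 7 in WT. With quantile normalization it did so for 15, 11, 14, 0 and 0 in the same order, and with the replicate block for 0 in each. Among the probes with the highest or lowest values between the lines, that slide block turned A_95_P072700 (0.13 under normal conditions, 0.0408 under salt), A_95_P089228 (−0.78 under salt) and A_95_P144422 (−0.0612 under salt). For A_95_P019191 under normal conditions it was 0.0802 with that block and 0.15 with quantile normalization, against −0.0017 without either. With the slide block, L2 minus WT is the difference within slide 1 under normal conditions and within slide 3 under salt. It rests there on L2 normal 1 and on WT salt 3, each the only array of its line on its slide. The slide-block values of L2 minus WT are therefore the single-slide values given above and no separate check. The cause of the changes was not tested. The choice by margin was not repeated with an array left out or with a block.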
